A study of Homo sapiens with 2 samples.

Results

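Chemerin and the genes that make, carry, sense and break down retinoic acid were followed as a set of 10 genes: RARRES2, RARRES1, ALDH1A1, ALDH1A2, ALDH1A3, CRABP1, CRABP2, RARB, CYP26B1 and STRA6. Each of the 10 was found in a deposited table of 60880 genes, through symbols matched to the table's Ensembl ids. The cells were SUM-159, a human triple-negative breast cancer line, and 2 RNA sequencing libraries were compared. Cells of 1 library were labelled PD-L1L2-SE deficient, after a super-enhancer to which the study's title ascribes the synchronous expression of both PD-1 ligands. Cells of the other were labelled sgVector and served as the control. Both groups share the SUM-159 background, and the sources used here do not say whether the deficient cells were 1 clone or a pool. The set was drawn up with the values of this same comparison known, so all values of the 10 genes are a description and none was tested. With 1 library per group there is no replicate check of any difference below.

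Retinoic acid is the active form of vitamin A. Cells take up retinol through the membrane receptor STRA6, oxidise it to retinaldehyde and then, with the retinaldehyde dehydrogenases ALDH1A1, ALDH1A2 and ALDH1A3, to retinoic acid. The small proteins CRABP1 and CRABP2 carry retinoic acid inside the cell, CRABP2 handing it to nuclear receptors such as RARB, while cytochromes of the CYP26 family, among them CYP26B1, oxidise it for removal. RARRES1 and RARRES2 were named as genes that respond to a retinoid acting on these receptors. RARRES2 encodes chemerin, a secreted protein that draws immune cells bearing the receptor CMKLR1 once proteases have trimmed its tail, and that liver and fat tissue release in quantity. ALDH1A activity is also used as a marker of stem-like cells in breast tumours.

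The libraries held 16381546 reads on genes in the deficient cells and 16206675 in the sgVector cells. Both genes named in the study's title were lower in the library labelled deficient, CD274 (PD-L1) with 47 reads in deficient and 477 in sgVector cells and PDCD1LG2 (PD-L2) with 46 reads in deficient and 204 in sgVector cells. Of the 8 mesenchymal and basal markers 7 passed a mean of 1 RPKM, and the list summed to 869 RPKM in deficient and 1169 RPKM in sgVector cells. VIM was 1.91-fold lower in the deficient library (32929 reads in deficient, 62376 in sgVector), KRT17 was 2.12-fold higher (417 reads in deficient, 195 in sgVector), FN1, CD44, AXL, CDH2 and ZEB1 lay between, and KRT5 had 7 reads in deficient and 1 in sgVector cells. Of the 6 luminal and epithelial markers EPCAM, CDH1 and ESR1 had at most 6 reads each, while KRT8, KRT18 and GATA3 were 1.20-fold, 1.37-fold and 1.62-fold lower in the deficient library. That list summed to 37.5 RPKM in deficient and 48.9 RPKM in sgVector cells. The hepatocyte list had 6 reads in deficient and 5 in sgVector cells over its 4 genes. The adipocyte list had 31 reads in deficient and 29 in sgVector cells over 4 genes, all of them on PLIN1, with ADIPOQ, LEP and FABP4 at 0. In the leukocyte list PTPRC, CD3E and CD68 had 0 to 4 reads and CD14 had 476 in deficient and 337 in sgVector cells. The part of these marker differences or of any change in cell mix in the results was not tested, and in bulk RNA fewer cells of a type and less RNA per cell cannot be told apart.

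The start regions of 3 of the genes are shown because they belong to the pair that was at least 2-fold lower in the deficient library and to the receptor gene with a textbook retinoic acid response element. Each covers 250 bases before to 50 after the RefSeq start, in GRCh38.p14, written in the direction of the gene. They are chr7:150341580-150341879 on the minus strand for RARRES2, chr1:156705735-156706034 on the minus strand for CRABP2, and chr3:25428013-25428312 on the plus strand for RARB, 1 of 4 windows of that gene. Capitals mark receptor half-sites on either strand, of which 4 were searched (AGGTCA and its variant AGTTCA, as well as GGGTCA with its variant GGTTCA), and the direct repeat of such half-sites with 5 bases between them.
RARRES2: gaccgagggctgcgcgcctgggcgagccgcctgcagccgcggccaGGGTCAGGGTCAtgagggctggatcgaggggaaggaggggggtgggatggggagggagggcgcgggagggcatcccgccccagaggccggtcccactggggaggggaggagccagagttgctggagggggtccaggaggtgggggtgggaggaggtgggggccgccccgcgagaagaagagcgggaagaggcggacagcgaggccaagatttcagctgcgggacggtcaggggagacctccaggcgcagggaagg
CRABP2: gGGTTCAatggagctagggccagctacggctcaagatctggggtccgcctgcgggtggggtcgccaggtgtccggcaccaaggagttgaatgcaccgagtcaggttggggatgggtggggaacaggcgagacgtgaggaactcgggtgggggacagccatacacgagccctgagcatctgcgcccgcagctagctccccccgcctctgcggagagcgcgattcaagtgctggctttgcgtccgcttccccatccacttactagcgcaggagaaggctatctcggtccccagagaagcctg
RARB: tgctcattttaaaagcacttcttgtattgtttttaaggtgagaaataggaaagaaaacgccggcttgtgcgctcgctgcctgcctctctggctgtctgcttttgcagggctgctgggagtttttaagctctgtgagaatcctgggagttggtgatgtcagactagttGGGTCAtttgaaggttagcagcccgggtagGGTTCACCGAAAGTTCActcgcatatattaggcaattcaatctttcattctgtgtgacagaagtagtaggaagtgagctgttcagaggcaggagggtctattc

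The RARB window held the direct repeat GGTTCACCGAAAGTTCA at positions -53 to -37 relative to the start. Such a repeat with 5 bases between the half-sites was in 31 of 35116 RefSeq windows of this length (0.0883%), and in no window of the other 9 genes. Repeats with 1 or 2 bases between half-sites were in 0.131% and 0.0399% of all windows and in none of the 10 genes. With AGGTCA and its variant AGTTCA alone as half-sites no repeat of any of the 3 spacings was found in the 10 genes. The RARRES2 window held GGGTCA as a pair with no base between, at positions -205 to -194, and the CRABP2 window held a single half-site. At least 1 of the 4 half-sites was in 38.6% of all windows and in 8 of the 18 windows of the 10 genes (44.4%). Those 8 belonged to 5 genes, RARRES2, ALDH1A2, CRABP2, RARB and STRA6, some of which have several windows. These matches describe the letters of these windows alone.

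RARRES2 was the gene of the set that differed most. The deficient library held 1 read of it (0.0318 RPKM, reads per kilobase of exon per 1000000 reads on genes), against 114 reads (3.66 RPKM) in the sgVector library. The ratio of read shares was 115 (95% Clopper-Pearson interval 20.3 to 4591), lower in the deficient library. All intervals given here cover counting error only. On the scale log2(RPKM + 0.1), which understates the change of low genes, the difference was -4.84. In the sgVector library 9971 protein-coding genes had 114 reads or more, and RARRES2 was the only one of them with 1 read or fewer in the deficient library, a comparison set at its own values. In sgVector cells its level was above 61.2% of protein-coding genes and in deficient cells above 28.0%. It ranked 3 from the lowest log2 ratio among the 11757 protein-coding genes that had 50 or more reads in all. The 3 genes of nearest log2 ratio were the homeobox gene DUXA at -5.09, an X-linked gene without a symbol at -4.32 and the selenium-binding protein gene SELENBP1 at -4.09, each with 0 reads in the deficient library, likeness being the difference of a single log2 ratio over 2 libraries.

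RARRES2 (ENSG00000106538) lies on chromosome 7 from 150035406 to 150038763 in hg19, on the minus strand. No exon of another gene in the table overlapped its exons, and 0 of 1858 50-base words of its longest GENCODE transcript occurred in transcripts of other genes. The nearest expressed protein-coding gene on the side of higher coordinates, the zinc finger gene REPIN1, begins 26.5 kb away and had 57.7 RPKM in deficient and 54.8 RPKM in sgVector cells, a log2 ratio of 0.07. On the other side ZNF862, 471 kb away, stood at -0.24. The 10 nearest such genes, 5 on each side, had a median log2 ratio of -0.07 and ran from -0.64 to 1.90. The zinc finger gene ZNF467, 565 kb away, was alone past 2-fold among them, and it was higher, with 326 reads in deficient and 83 in sgVector cells.

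**Figure D1:**
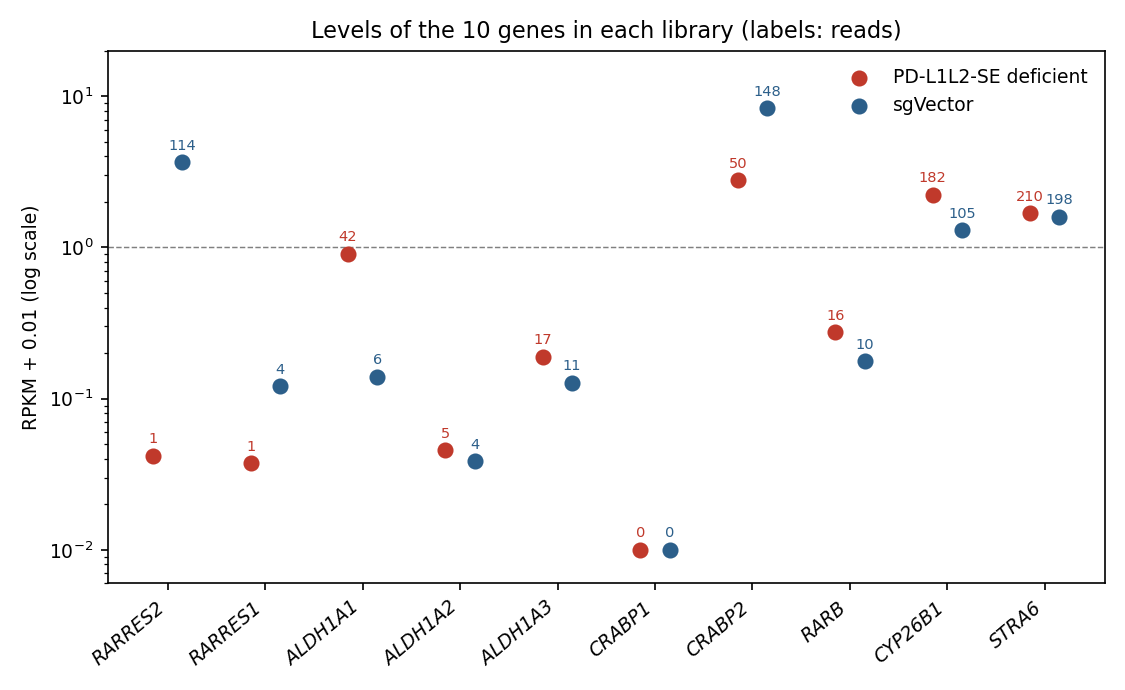
Level of each of the 10 genes in the deficient library (red, left) and the sgVector library (blue, right), as RPKM + 0.01 on a log axis, with the number of reads above each point and a dashed line at 1 RPKM. RARRES2 (1 read in deficient, 114 in sgVector) and CRABP2 (50 in deficient, 148 in sgVector) were lower in the deficient library, ALDH1A1 (42 in deficient, 6 in sgVector) was higher, and CRABP1 had 0 reads in both.

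The gene of the main chemerin receptor was higher. CMKLR1, the signalling chemerin receptor, had 697 reads (7.48 RPKM) in deficient and 196 reads (2.13 RPKM) in sgVector cells, 3.52-fold higher (2.998 to 4.144). CMKLR2, the second receptor, had 102 reads in deficient and 66 in sgVector cells and was 1.53-fold higher (1.11 to 2.12), short of 2-fold. CCRL2, which binds chemerin without signalling, had 0 reads in deficient and 2 in sgVector cells. Among proteases that act on chemerin or on plasminogen, PLAU, the urokinase that activates plasminogen, had 697 reads in deficient and 2004 in sgVector cells and was 2.91-fold lower (2.66 to 3.17). The cathepsin genes CTSK and CTSL stood at log2 ratios of -0.06 and 0.28. ELANE had 16 reads in deficient and 18 in sgVector cells, a log2 ratio of -0.17, and PRTN3 had 26 in deficient and 27 in sgVector cells, at -0.07. Plasminogen itself (PLG), KLK7, CTSG, CPN1 and CPN2 had 0 reads in both libraries. Of 19 listed genes of the chemerin system 8 passed a mean of 1 RPKM, RARRES2 through its sgVector value alone. Of these 8, 1 was past 2-fold upward and 2, RARRES2 among them, past 2-fold downward. Their median log2 ratio was -0.06, a value whose sign changed under other settings (-0.09 to 0.21). Among all 13552 genes past that level the median was -0.05, with 3.03% past 2-fold upward and 4.69% downward. This list too was chosen with earlier results of these data known, so its count is a description only.

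Of the 10 genes, 4 had a mean of at least 1 RPKM, against 53.3% of all protein-coding genes. They were RARRES2, CRABP2, CYP26B1 and STRA6, and RARRES2 reached that mean through its sgVector value alone. Of these 4, 2 were at least 2-fold lower in the deficient library and 0 at least 2-fold higher on the log2(RPKM + 0.1) scale. Over all 13552 genes past that mean, 4.69% were at least 2-fold lower and 3.03% at least 2-fold higher, and over the 10576 protein-coding ones 2.07% and 2.10%. The whole counting interval lay past 2-fold lower for the same 2 genes, against 1.04% of the protein-coding genes past that mean. It lay past 2-fold higher for ALDH1A1 and for 1.31% of the protein-coding genes past that mean, a group outside which ALDH1A1 falls. Nothing is read from these shares, since the set was chosen on the same comparison. The other 6 genes were below that mean, and CRABP1 had no read at all. The counting interval excluded equal shares for 4 genes, RARRES2, CRABP2, ALDH1A1 and CYP26B1, and spanned them for 5. Among the 4 genes past a mean of 1 RPKM it excluded them for RARRES2, CRABP2 and CYP26B1 and spanned them for STRA6. Of all protein-coding genes past 1 RPKM, 65.4% had an interval that excluded equal shares.

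**Figure D2:**
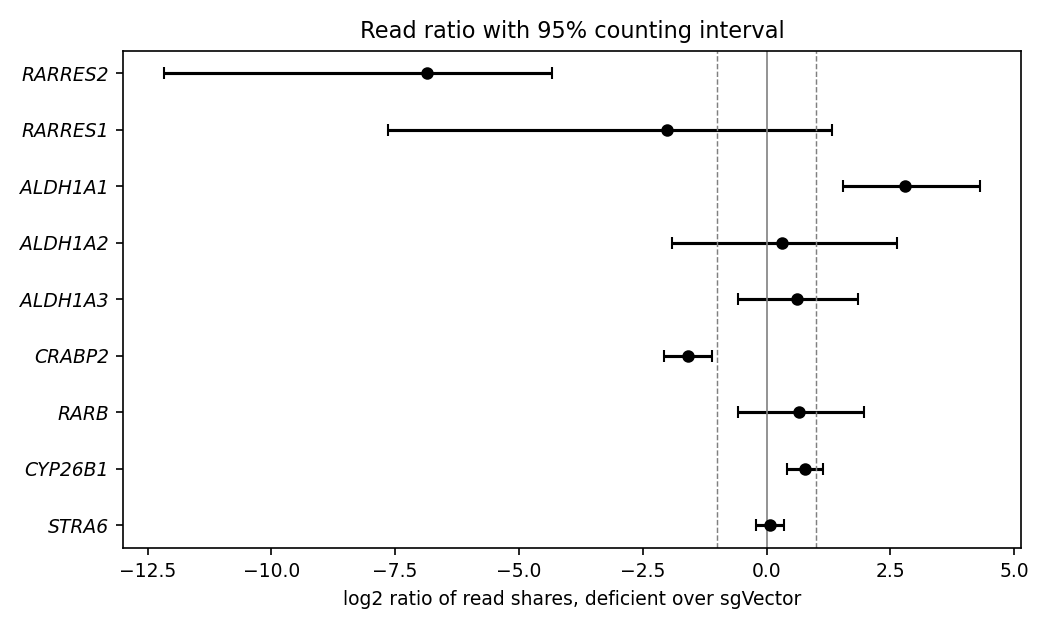
Ratio of read shares, deficient over sgVector, for the 9 genes with reads, on a log2 axis, with 95% Clopper-Pearson intervals as bars and dashed lines at 2-fold. The intervals of RARRES2 and CRABP2 lie wholly below 2-fold lower, that of ALDH1A1 wholly above 2-fold higher, and those of RARRES1, ALDH1A2, ALDH1A3, RARB and STRA6 span equal shares.

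STRA6, through which retinol enters the cell, differed little. It had 210 reads (1.67 RPKM) in deficient and 198 reads (1.59 RPKM) in sgVector cells, a ratio of 1.05 (0.860 to 1.28). Its neighbour CCDC33 shares 540 exon bases with it on the opposite strand but had only 4 reads in deficient and 11 in sgVector cells. In the same list 2 genes of lipid and ester handling were at least 2-fold higher. LPL, the lipoprotein lipase, had 807 reads in deficient and 128 in sgVector cells, 6.24-fold higher (5.17 to 7.58). The carboxylesterase gene CES1, whose product can cleave retinyl esters and whose reads are uncertain because of a near-identical pseudogene, had 2309 reads in deficient and 151 in sgVector cells and was 15.1-fold higher (12.8 to 17.96). SCARB1, a receptor for lipoproteins and carotenoids, was 1.39-fold lower (1.33 to 1.46). DGAT1, an acyltransferase gene, had 819 reads in deficient and 829 in sgVector cells, the lipase gene LIPE had 42 reads in each, and PNPLA4, a lipase family gene, had 2 reads in deficient and 15 in sgVector cells. Of the 6 genes of this list past 1 RPKM, 2 were past 2-fold upward and 0 downward. Their median was 0.39, which was -0.01 with no floor on the level and 1.27 with a floor of 5 RPKM. By the same cut, 3.03% of all 13552 genes past 1 RPKM were called upward, and 4.69% downward. The list was chosen with earlier results of these data known, so nothing is read from this count. The retinol binding protein genes RBP2, RBP4 and RBP7 and the esterifying enzyme gene LRAT had at most 1 read in either library. RBP5, past 1 RPKM, had 58 reads in deficient and 34 in sgVector cells and was 1.69-fold higher (1.09 to 2.66).

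CRABP2 was lower and its paralog CRABP1 had no reads. CRABP2 had 50 reads (2.77 RPKM) in deficient and 148 reads (8.30 RPKM) in sgVector cells, 2.99-fold lower (2.16 to 4.21). It was the most abundant of the 10 genes per length in both libraries. Its level was above 57.2% of protein-coding genes in deficient cells and above 75.5% in sgVector cells. CRABP1 had 0 reads in both, which with 3 reads set for 0 allows up to 0.184 RPKM in deficient and 0.186 RPKM in sgVector cells. FABP5, a fatty acid binding protein that can also carry retinoic acid, had 9 reads in deficient and 10 in sgVector cells. CRABP2 lies on chromosome 1 from 156669398 to 156675608 in hg19. Its nearest expressed neighbours GPATCH4 and ISG20L2 stood at log2 ratios of 0.19 and 0.29, and none of the 10 nearest was past 2-fold, with a range of -0.40 to 0.29 and a median of -0.05 (0.14 with a GC and length correction). No exon of another gene overlapped CRABP2, and none of its 984 50-base words was shared with a transcript of another gene.

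Among the retinaldehyde dehydrogenases ALDH1A1 was higher from a low start. It had 42 reads (0.900 RPKM) in deficient and 6 reads (0.130 RPKM) in sgVector cells, 6.93-fold higher (2.93 to 19.9). In the sgVector library 6777 protein-coding genes had 6 reads or fewer, and 17 of them, ALDH1A1 included, had 42 or more in deficient cells, again set at its own values. ALDH1A3 had 17 reads (0.180 RPKM) in deficient and 11 reads (0.118 RPKM) in sgVector cells, a ratio of 1.53 (0.676 to 3.61). It shares 1585 exon bases, 27.5% of its exon length, with the antisense gene ALDH1A3-AS1, which had 21 reads in deficient and 12 in sgVector cells. ALDH1A2 had 5 reads in deficient and 4 in sgVector cells and a ratio of 1.24 (0.266 to 6.23). It shares 354 exon bases with AQP9, an aquaporin gene on the other strand with 167 reads in deficient and 46 in sgVector cells. The sources used here do not state whether counting used strand, so reads of such pairs cannot be told apart.

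Together the 3 enzymes had 64 reads in deficient and 21 in sgVector cells, 3.02-fold higher (1.82 to 5.20), and ALDH1A1 made up 80.7% of their summed RPKM in deficient and 47.0% in sgVector cells. Their summed level was 1.12 RPKM in deficient and 0.276 RPKM in sgVector cells, while ALDH9A1, a paralog outside retinoid synthesis, had 17.9 RPKM in deficient and 13.8 RPKM in sgVector cells. ALDH8A1, which acts on the 9-cis form of retinaldehyde, had 66 reads in deficient and 44 in sgVector cells and a ratio of 1.48 (0.998 to 2.23). Of 19 listed genes of the aldehyde dehydrogenase family 10 passed 1 RPKM. All 10 lay within 2-fold, with a median that ran from -0.02 to 0.21 over the settings tried. Of all 13552 genes past 1 RPKM, 12505 lay within 2-fold. Below that level the folate enzyme gene ALDH1L1 had 25 reads in deficient and 144 in sgVector cells and was 5.82-fold lower (3.79 to 9.30). ALDH3A2, a fatty aldehyde dehydrogenase, was 1.65-fold higher (1.5005 to 1.8151), and ALDH7A1, below 1 RPKM, 1.77-fold higher (1.43 to 2.18), both at a log2 ratio of 0.71 and the highest of the family with at least 50 reads. ALDH1A1 lies on chromosome 9 from 75515578 to 75695358 in hg19, and its nearest expressed neighbours ZFAND5 and ANXA1 stood at 0.21 and -0.40. None of the 10 nearest was past 2-fold, and their median was 0.17, but only 5 of them lay within 1 Mb.

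**Figure D3:**
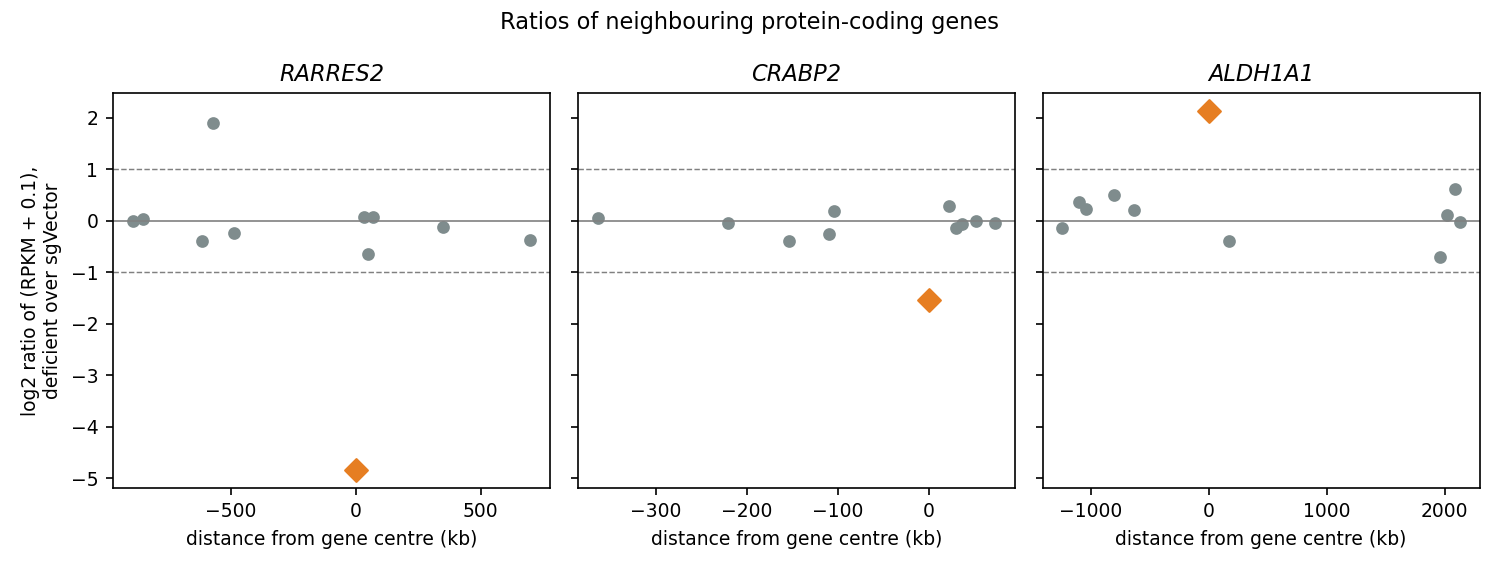
Log2 ratio of (RPKM + 0.1), deficient over sgVector, of RARRES2, CRABP2 and ALDH1A1 (orange diamonds) and of the 5 nearest protein-coding genes averaging 1 RPKM or more on each side (grey), against distance in kb between gene centres, with dashed lines at 2-fold. The neighbours lie within 2-fold except ZNF467 near RARRES2, at 1.90, while the 3 genes stand at -4.84, -1.55 and 2.12.

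The step before, between retinol and retinaldehyde, held no expressed gene past 2-fold. Of 22 listed dehydrogenases, reductases and carotenoid-cleaving enzymes 8 passed 1 RPKM and all 8 lay within 2-fold, from -0.41 to 0.18, with a median of -0.15. Most genes did so, with 12505 of all 13552 genes past that level within 2-fold. RDH10, the main retinol dehydrogenase of the embryo, had 157 reads in deficient and 136 in sgVector cells, and DHRS3, which turns retinaldehyde back to retinol, had 296 reads in deficient and 331 in sgVector cells. RDH11 was the lowest, 1.33-fold lower (1.22 to 1.45). BCO2, a carotenoid oxygenase below 1 RPKM, had 106 reads in deficient and 45 in sgVector cells and was 2.33-fold higher (1.63 to 3.38), with a log2 ratio of 1.05 that a GC and length correction brought to 0.97.

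CYP26B1, which oxidises retinoic acid, was higher by less than 2-fold. It had 182 reads (2.22 RPKM) in deficient and 105 reads (1.29 RPKM) in sgVector cells, 1.71-fold higher (1.34 to 2.20). The other enzymes of its family, CYP26A1 and CYP26C1, had 0 reads in both. The 10 nearest expressed neighbours of CYP26B1, 7 of them within 1 Mb, had a median log2 ratio of 0.00.

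RARB, the receptor gene whose start holds the repeat printed above, was barely detected in either library, with 16 reads (0.264 RPKM) in deficient and 10 reads (0.167 RPKM) in sgVector cells, a ratio of 1.58 (0.675 to 3.90). It shares 28 exon bases with TOP2B, a highly expressed gene on the other strand with 2608 reads in deficient and 2113 in sgVector cells. The retinoic acid and retinoid X receptor genes past 1 RPKM were RARA, RARG, RXRA and RXRB, at 11.96, 9.61, 12.4 and 18.7 RPKM in deficient cells and at 13.3, 13.7, 8.40 and 20.8 RPKM in sgVector cells. PPARD, a fatty acid receptor gene of the same list, had 19.7 RPKM in deficient and 20.1 RPKM in sgVector cells. RARG was 1.42-fold lower (1.30 to 1.56) and RXRA 1.48-fold higher (1.39 to 1.58). All 6 receptor genes past 1 RPKM lay within 2-fold, as did 12505 of all 13552 genes past that level. The median of the 6 receptor genes, -0.09, changed sign with a GC and length correction (0.11), a floor of 0.5 RPKM (0.07) or no floor (0.31). Below 1 RPKM RXRG had 37 reads in deficient and 15 in sgVector cells, 2.44-fold higher (1.31 to 4.79). The orphan receptor gene NR2F1 had 84 reads in deficient and 34 in sgVector cells, 2.44-fold higher (1.62 to 3.76). The orphan receptor genes RORA and RORB had fewer reads and differed in direction. RORA had 2 reads in deficient and 19 in sgVector cells, and RORB had 39 in deficient and 1 in sgVector cells.

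All 14 coregulator genes past 1 RPKM were within 2-fold, with a median of 0.14, as were 12505 of all 13552 genes past that level. NRIP1, a corepressor that retinoic acid induces, was the highest at 1.61-fold (1.32 to 1.96). PRAME, a tumour antigen known to repress retinoic acid receptor signalling and a member of a family of similar genes, was below 1 RPKM and had 12 reads in deficient and 70 in sgVector cells, 5.90-fold lower (3.17 to 11.95).

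The genes named for their response to retinoids did not share a direction. RARRES1, a membrane protein gene often silenced in tumours, had 1 read in deficient and 4 reads in sgVector cells, a ratio of 0.247 (0.00502 to 2.50), too few reads to show a difference. It shares 331 exon bases with MFSD1, a gene on the other strand with 431 reads in deficient and 447 in sgVector cells. PLAAT4, a phospholipase and acyltransferase gene first named RARRES3, had 374 reads (17.6 RPKM) in deficient and 114 reads (5.42 RPKM) in sgVector cells, 3.25-fold higher (2.62 to 4.04). RARRES2 and PLAAT4 each had 114 reads in sgVector cells, whereas in deficient cells RARRES2 had 1 and PLAAT4 had 374.

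Of 35 listed response genes 20 passed 1 RPKM, with 1 at least 2-fold higher, 2 at least 2-fold lower and 17 between, and a median of 0.11. TGM2, a transglutaminase that retinoic acid induces in many cells, stood at -0.08, and the homeobox genes HOXA2 and HOXA5 at 0.75 and 0.37. Over all retinoid lists joined, 47 genes outside the set of 10 passed 1 RPKM, of which 3 (CES1, LPL and PLAAT4) were at least 2-fold higher and 0 lower. Their median was 0.12, and 29 were above 0 and 18 below. Over all 13552 genes past that level 6034 were above 0 and 7518 below, and over the protein-coding ones 4907 and 5669. At least 2-fold higher were 3.03% of all genes past that level, and 4.69% were at least 2-fold lower. Nothing is read from these counts, since the lists were chosen with earlier results of these data known.

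**Figure D4:**
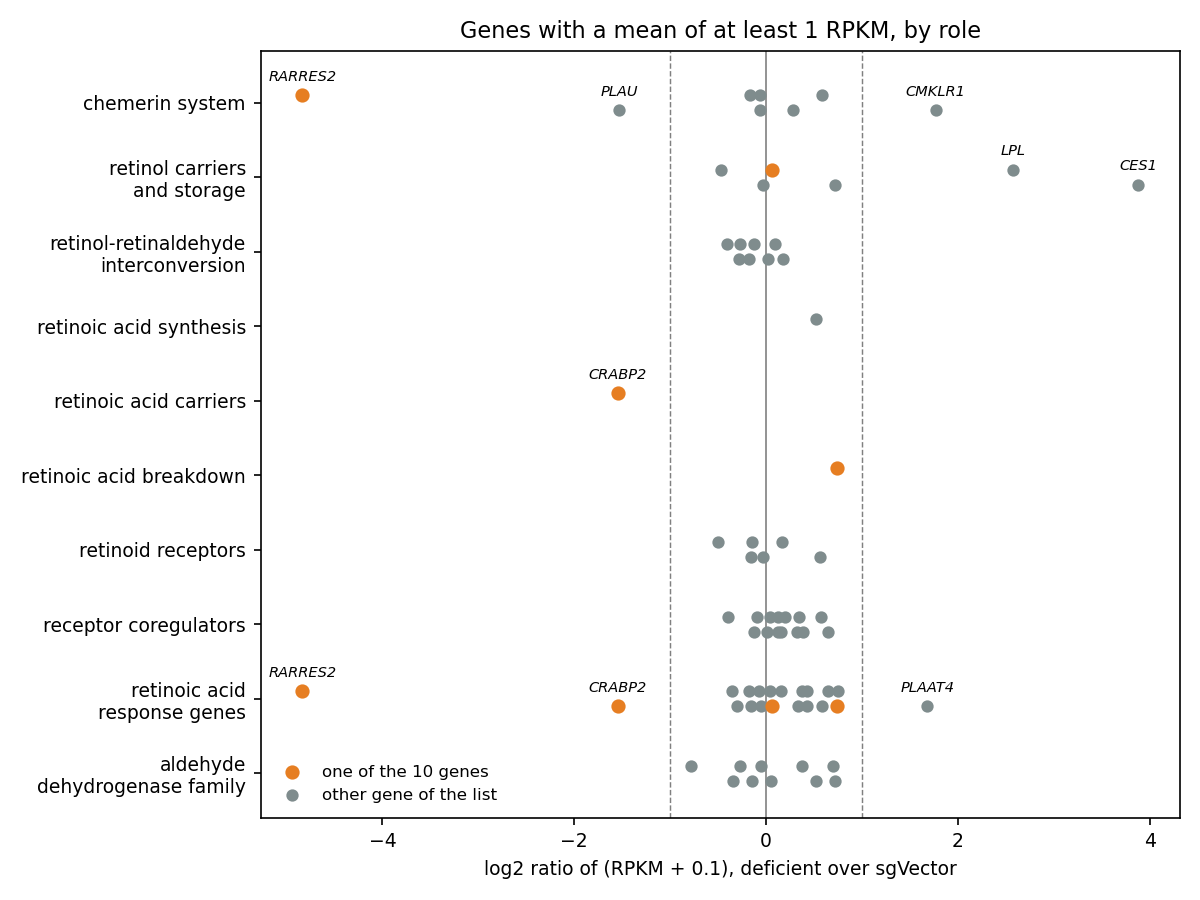
Log2 ratio of (RPKM + 0.1), deficient over sgVector, of each gene averaging 1 RPKM or more, in rows by role, with members of the set of 10 in orange, dashed lines at 2-fold and genes past it named. RARRES2, CRABP2 and PLAU lie to the left and CMKLR1, LPL, CES1 and PLAAT4 to the right, while the dehydrogenase, receptor, coregulator and aldehyde dehydrogenase rows stay within 2-fold.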

How the data were processed

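RNA sequencing of 2 SUM-159 libraries was used, 1 per group. Poly(A) selection or removal of ribosomal RNA came first, per the labels' protocols. The submitters' processing notes name featureCounts 1.6.4, Subread, GRCh37 and hg19. The sources used here give no aligner, annotation release or strand setting. The authors deposited RPKM values with exon coordinates and gene length. Reads were recovered by multiplying RPKM by length and dividing by the smallest nonzero product of each library, which was taken as 1 read. All values (100%) were then whole to within 1e-06, and these reads served for ratios and intervals. Symbols came from a gene name table, and gene types and GC content from GENCODE release 29 (93.4% of rows matched). The 41 rows of pseudoautosomal copies were left out. Calls used a log2 ratio of (RPKM + 0.1) of at least 1 or at most -1 among 13552 genes averaging 1 RPKM or more. No p-values were computed, since each group has 1 library.

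The 10 genes and all lists were chosen with earlier results of these data known. Named beyond the 10 were, in each list, the highest and lowest ratio and any past 2-fold among genes with at least 50 reads, the nearest expressed neighbours of members past 2-fold and the 3 genes nearest RARRES2 in ratio; other genes are named for their role, or after their values or positions were seen. Promoter sequences are from RefSeq (GRCh38.p14) and all 10 genes matched; other coordinates are hg19 from the deposited table. A planned comparison of protein sequences was not made. A few genes that these rules or lists would name are not reported here. The ratio of read shares and its counting interval were checked on simulated counts with known changes, in protein-coding genes averaging 1 RPKM or more. That simulation held counting error only. The work used scipy 1.17.1, pandas 2.3.3, matplotlib 3.10.9, statsmodels 0.14.6 and numpy 2.4.6 in Python 3.11.15.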

Additional observations from a re-analysis of the deposited data

How the results depend on the processing

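No paired analysis was possible because each group has 1 library. Alternatives were pseudocounts of 1 and 0.01 RPKM, centring, TMM, upper-quartile and TPM scaling, removal of mitochondrial genes, a lowess correction for GC content and length (share 0.3), other floors and thresholds, and the interval rule. The 9 members with reads kept their sign in all 8 scale settings tried for each, and 70 of 72 values stayed inside the counting interval. With a pseudocount of 1 RPKM, which shrinks low genes by construction, RARRES2 stood at -2.18 and ALDH1A1 at 0.75. Members at least 2-fold higher numbered 0, but 1 (ALDH1A1) with a floor of 0.5 RPKM or none and 1 (CYP26B1) at 1.5-fold. Members at least 2-fold lower numbered 2, but 1 (CRABP2) with a floor of 5 RPKM and 1 (RARRES2) at 4-fold. Among other named genes past 2-fold, ALDH1L1 (-0.57), PRAME (-0.84), NR2F1 (0.56), RXRG (0.45), BCO2 (0.47), KRT17 (0.91) and RORB (0.31) lost it with a pseudocount of 1 RPKM. The median over all retinoid lists ranged from 0.02 to 0.17. Of 188 medians for single lists and neighbours 11 were marked as moved from the main setting, 4 of them by the GC and length correction. No interval is given here for these medians. The receptor-site search with 4 half-sites and a spacing of 1 base was added after the data were seen. Depth limits RARRES1, ALDH1A2, CRABP1 and the deficient value of RARRES2.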
